A study of Mus musculus with 12 samples.

Results

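Transcripts of 36 genes of glycolysis and of the response to low oxygen were compared between thymic tumors, pre-leukemic thymus and wild-type thymus of female mice of the Sdl model. The set was a list of 40 genes. A gene was measured where the array annotation pairs a transcript cluster (the probe set of a gene) with that symbol alone, and the cluster with the highest mean was taken where a gene had several. Gpi1, Eno1 and Ldha had no such cluster and Mif shared its cluster with another symbol, so these 4 were not analysed here. The 36 measured genes were 12 enzymes on the way from glucose to lactate, 9 transporters and regulators of glucose use together with Fbp1, and 15 genes of oxygen sensing and of the hypoxia response, out of 17829 clusters in all.

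The tumors came from moribund females heterozygous for the D573H substitution in Mcm4, part of the MCM helicase that opens DNA at replication forks. The pre-leukemic thymus came from heterozygous (D573H/+) females at 21 days of age, and the wild-type thymus from +/+ females at 21 days. Each group had 4 arrays, and each array held RNA of 3 pooled organs. Tumor-bearing mice were moribund and both other groups 21 days old, so age and disease cannot be told apart. RNA came from whole organs, in which a change in the number of cells of a type and a change in RNA per cell cannot be told apart either.

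Glycolysis splits glucose into pyruvate, which is either burnt in mitochondria or reduced to lactate and exported. Many of its enzymes exist as isoforms encoded by different genes. Hif1a, the oxygen-regulated subunit of the hypoxia-inducible factor, is controlled mainly at the level of its protein: in normal oxygen the prolyl hydroxylases Egln1 and Egln3 mark it for destruction, and in low oxygen it persists and switches on genes of glycolysis, of angiogenesis and of mitochondrial turnover. Developing thymocytes and leukemic T cells both use glucose heavily when they divide, and Myc and growth factor signals are also known to raise glycolytic genes.

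Median intensities were similar across the 12 arrays, at 186.4 to 209.8. Values are given as log2 of the deposited intensity. Markers of double-positive thymocytes, the CD4 and CD8 expressing majority of the normal thymus, summed to 11305 to 17871 intensity units on tumor arrays, 29464 to 36359 on pre-leukemic arrays and 34194 to 35780 on wild-type arrays, and 9 of 9 were lower in tumors than in wild type. Cortical epithelial markers summed to 3054 to 4851, 33382 to 36305 and 30867 to 35066 on tumor, pre-leukemic and wild-type arrays. Fat markers summed to 983 to 1542 on tumor arrays, 1668 to 8688 on pre-leukemic arrays and 3907 to 6461 on wild-type arrays. Pre-leukemic replicate 3 stood apart in several lists. Its sums were the lowest of its group for fat (1668, with the others at 5607 to 8688), fibroblasts (4035, with the others at 7207 to 12154), neutrophils (1212, with the others at 1759 to 2957), endothelium (1915, with the others at 2397 to 2516) and erythroid cells (1768, with the others at 2706 to 5024), and the highest for double-positive thymocytes (36359). The macrophage sum was also the lowest (5574, with the others at 5793 to 6279). Medullary epithelial markers had their highest pre-leukemic sum on this array (4496, with the others at 3455 to 3760). No marker of any of the 10 cell type lists had a mean at or below 4.69, the median of olfactory receptor clusters, genes that stand here for background. Of the other lists, 5 of 7 medullary epithelial, 7 of 8 neutrophil, 4 of 10 endothelial, 4 of 9 fibroblast and 1 of 7 muscle markers were called lower in tumors than in wild type. In addition, 1 fibroblast marker was called higher. Marker counts are limma calls at an adjusted p under 0.05. By that rule 14.5% of all clusters were lower and 16.2% higher in tumors than in wild type, so the muscle count is near the share of all clusters.

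Tumors were first set against the normal organ. Of the 36 genes, 25 rose in tumors and 1, Bnip3l, fell, against 16.2% of all clusters called higher and 14.5% called lower (limma, Benjamini-Hochberg adjusted p under 0.05 over all clusters). The median log2 difference of the 36 was 0.54, against 0.07 over all clusters. On each of the 26 called genes, all 4 tumor arrays lay on the same side of all 4 wild-type arrays. The share of all clusters with this pattern was not counted, so it adds nothing to the calls. Of the enzymes, 11 of 12 rose and 0 fell, with differences between 0.00 and 1.22 and a median of 0.66. Of the hypoxia genes, 8 of 15 rose and 1 fell, with differences between -0.58 and 2.11 and a median of 0.38. Of the 9 transporters, regulators and Fbp1, 6 rose and 0 fell, and they held the largest rise of the set, 3.23 for Fbp1.

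**Figure D1:**
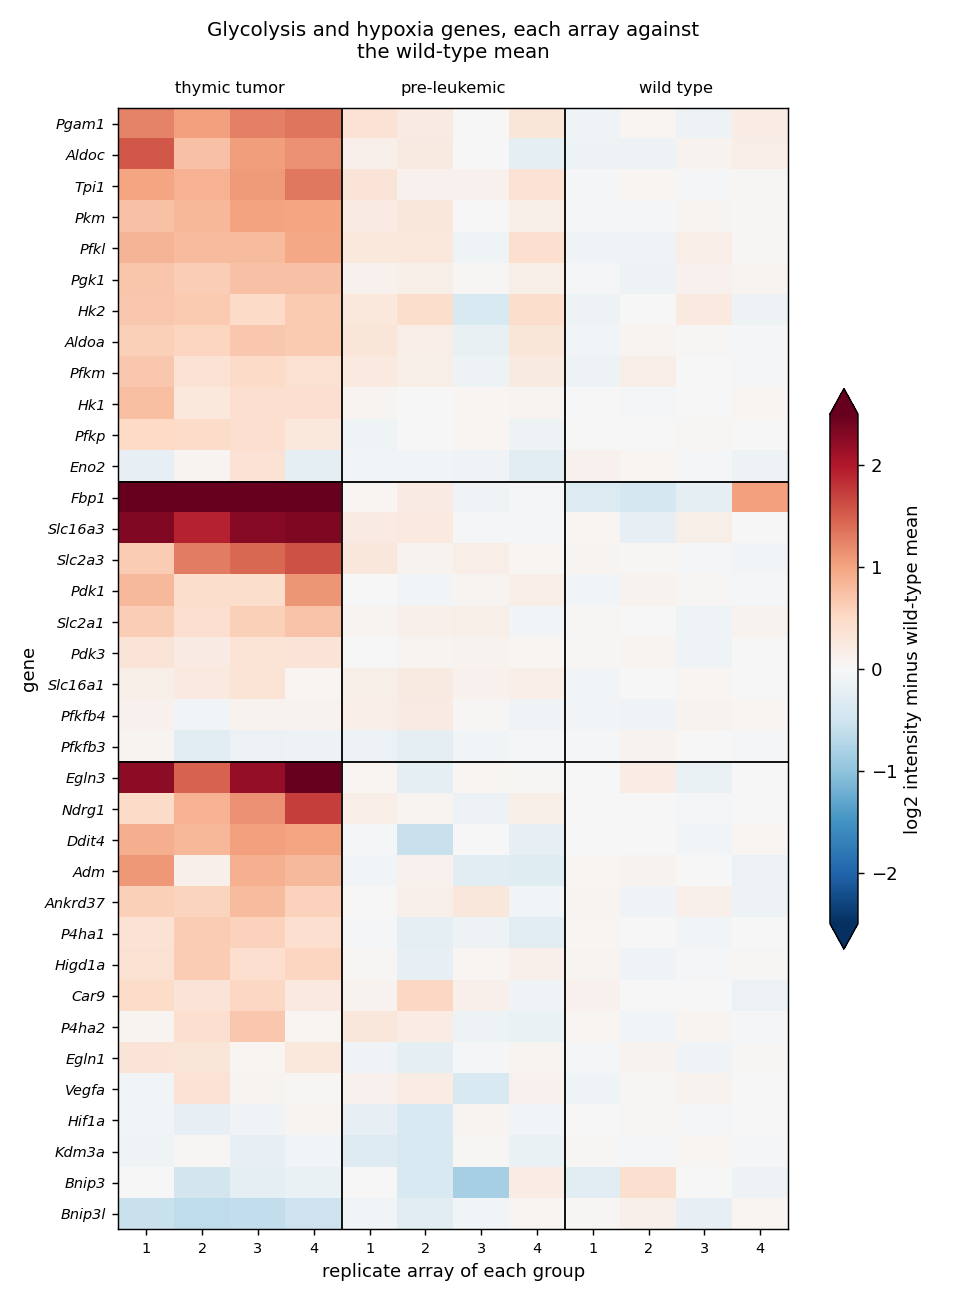
Each row is a gene and each column an array, with the 4 tumor arrays on the left, the 4 pre-leukemic arrays in the middle and the 4 wild-type arrays on the right. Colour gives log2 intensity minus the wild-type mean, and lines part the 12 enzymes, the 9 transporters, regulators and Fbp1, and the 15 hypoxia genes. Tumor columns are red for 11 of the 12 enzymes, and Bnip3l and Bnip3, which was not called, lie below the wild-type mean on every tumor array.

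Hypoxia-inducible factors bind a short core, ACGTG or GCGTG, that hypoxia response elements contain. The 250 bases before each annotated start were searched for both strings of letters on both strands, in RefSeq promoters of GRCm38.p6. A match is a string of letters, not a site shown to be bound. Of the 36 genes, 33 had a promoter in that table, and 30 of them (90.9%) held at least 1 match, against 52.7% of the 12203 named genes on the array with a promoter and 41.5% of all 27025 genes. The list was drawn up around glycolysis and the response to these factors. A high share of matches may therefore follow from the choice of genes. A gene can have several windows, and per window the share was 76.1% of 46 for the set and 38.6% of 32851 for all genes. Among genes with at least 10 CG pairs in the window, 27 of 28 set members (96.4%) and 67.4% of 10871 genes held a match. Within the set, 21 of 23 genes that rose in tumors held a match, as did 9 of 10 that were not called. The longer string CACGTG, an E-box that contains ACGTG and that Myc and related factors can also bind, was held by 1 of the 23 (4.35%) and by 4 of the 10, against 8.63% of the named genes on the array and 10.8% of genes with at least 10 CG pairs. The 6 windows below, with the matches in capitals, are those of the lactate exporter Slc16a3 and of Egln3 (large rises), of Ankrd37 (4 matches and a rise), of the enzyme gene Pgk1, of Bnip3 (5 matches and no call) and of Fbp1 (no match and the largest rise).
Slc16a3, chr11:120948817-120949066, plus strand: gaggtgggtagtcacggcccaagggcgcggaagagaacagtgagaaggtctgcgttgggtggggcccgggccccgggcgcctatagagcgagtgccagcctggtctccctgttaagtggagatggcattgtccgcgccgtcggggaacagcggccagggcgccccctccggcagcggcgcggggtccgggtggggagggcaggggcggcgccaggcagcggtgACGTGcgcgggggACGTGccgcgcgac
Egln3, chr12:54203875-54204124, minus strand: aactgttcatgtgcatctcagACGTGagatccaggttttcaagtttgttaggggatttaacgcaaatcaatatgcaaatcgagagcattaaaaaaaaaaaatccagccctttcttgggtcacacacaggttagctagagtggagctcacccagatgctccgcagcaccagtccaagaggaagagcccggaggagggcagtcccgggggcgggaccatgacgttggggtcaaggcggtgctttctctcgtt
Ankrd37, chr8:45999851-46000100, minus strand: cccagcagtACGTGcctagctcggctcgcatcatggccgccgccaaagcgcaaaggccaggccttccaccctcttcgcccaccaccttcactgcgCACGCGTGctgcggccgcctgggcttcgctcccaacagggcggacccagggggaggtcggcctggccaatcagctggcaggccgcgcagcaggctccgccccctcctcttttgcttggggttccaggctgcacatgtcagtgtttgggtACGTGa
Pgk1, chrX:106186850-106187099, plus strand: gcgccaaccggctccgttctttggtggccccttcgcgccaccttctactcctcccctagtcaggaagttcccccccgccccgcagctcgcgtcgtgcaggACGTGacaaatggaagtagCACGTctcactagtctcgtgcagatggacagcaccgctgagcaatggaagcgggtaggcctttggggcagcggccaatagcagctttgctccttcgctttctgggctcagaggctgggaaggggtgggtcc
Bnip3, chr7:138909507-138909756, minus strand: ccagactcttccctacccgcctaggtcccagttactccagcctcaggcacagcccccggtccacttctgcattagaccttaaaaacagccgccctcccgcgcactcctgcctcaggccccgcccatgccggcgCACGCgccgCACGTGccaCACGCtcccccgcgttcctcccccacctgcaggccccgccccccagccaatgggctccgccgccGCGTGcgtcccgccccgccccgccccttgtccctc
Fbp1, chr13:62888283-62888532, minus strand: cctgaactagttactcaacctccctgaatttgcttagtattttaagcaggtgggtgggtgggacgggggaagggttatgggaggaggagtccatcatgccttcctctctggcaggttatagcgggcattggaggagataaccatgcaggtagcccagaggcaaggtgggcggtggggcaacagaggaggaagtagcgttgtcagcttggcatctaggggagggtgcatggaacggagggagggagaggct

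Glucose enters cells through Slc2a1 and Slc2a3, the GLUT1 and GLUT3 transporters. Slc2a3 measured 8.74, 9.39, 9.53 and 9.69 on the tumor arrays and 8.16, 8.14, 8.08 and 8.02 on the wild-type arrays. Tumor replicate 1 was the lowest of its group and still above every wild-type array, and the rise was 1.23 ± 0.18 (log2 difference and its standard error, 4 arrays a group, limma adjusted p = 0.00102). Slc2a1 rose by 0.59 ± 0.08 (adjusted p = 7.77e-04), with tumor arrays between 9.83 and 10.13 and wild-type arrays between 9.31 and 9.49. Lactate leaves through Slc16a3, the MCT4 transporter, which measured 9.53, 9.13, 9.49 and 9.54 in tumors and 7.26, 7.01, 7.36 and 7.21 in wild-type thymus. It was the second largest rise of the set, 2.21 ± 0.12 or 4.63-fold (adjusted p = 5.41e-06). Slc16a1, the MCT1 transporter of lactate and pyruvate, had tumor values of 11.16 to 11.45 and wild-type values of 11.05 to 11.16, a difference of 0.20 with a 95% interval of 0.02 to 0.37 that was not called (adjusted p = 0.0929). Without tumor replicate 4 it was 0.24 and was called (adjusted p = 0.0472).

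Hexokinases trap glucose in the cell by phosphorylation. Hk2, the inducible isoform, measured 7.76, 7.72, 7.56 and 7.74 in tumors and 6.94, 7.08, 7.33 and 6.94 in wild-type thymus, and rose by 0.62 ± 0.10 (adjusted p = 0.00173). Hk1, the isoform found in most tissues, rose by 0.47 ± 0.10 (adjusted p = 0.00832), with tumor replicate 1 at 9.28 and the other tumor arrays at 8.78 to 8.95. The 3 phosphofructokinase genes, whose products carry out the committed step, all rose: Pfkl by 0.85 ± 0.08 (adjusted p = 1.13e-04), Pfkm by 0.47 and Pfkp by 0.41. Aldolases then split the sugar. Aldoa, the main isoform, rose by 0.61 ± 0.07 (adjusted p = 2.00e-04), and Aldoc, known best from brain, rose by 1.12 ± 0.16 (adjusted p = 9.68e-04) and varied more among tumors (SD 0.34 against 0.07 for Aldoa, n = 4).

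Of the later enzymes, Pgam1, which moves the phosphate of phosphoglycerate, measured 11.08, 10.87, 11.11 and 11.18 in tumors and 9.74, 9.89, 9.71 and 10.02 in wild-type thymus. With a rise of 1.22 ± 0.10 (adjusted p = 4.14e-05) it had the largest difference of the 12 enzymes. Tpi1, which interconverts the 2 triose phosphates, measured 11.62, 11.51, 11.70 and 11.95 in tumors and 10.61, 10.69, 10.59 and 10.66 in wild type. All tumor arrays were above all wild-type arrays, and it rose by 1.06 ± 0.10 (adjusted p = 7.74e-05). Pkm, pyruvate kinase, rose by 0.89 ± 0.08 (adjusted p = 7.87e-05), and Pgk1, phosphoglycerate kinase, by 0.70 ± 0.07 (adjusted p = 1.72e-04). Glycolytic enzymes have many retrocopies in the mouse genome, and cross-hybridisation with them was not tested. Pgk1 and Pgam1 had 3 and 2 clusters, and the others gave rises of 0.74 and 0.79 for Pgk1 and 1.16 for Pgam1. Eno2, the neuron-type enolase, was the enzyme with no call: its tumor values of 6.76 to 7.34 enclosed its wild-type values of 6.85 to 7.09, and the difference was 0.00 with a 95% interval of -0.29 to 0.30.

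Of 4 regulators, 2 rose. Pdk1, a kinase that switches off pyruvate dehydrogenase and so limits the oxidation of pyruvate in mitochondria, measured 9.08, 8.71, 8.73 and 9.39 in tumors and 8.22, 8.36, 8.30 and 8.23 in wild-type thymus, a rise of 0.70 ± 0.15 (adjusted p = 0.00610). Its relative Pdk3 rose by 0.30 ± 0.07 (adjusted p = 0.00975). Pfkfb3 and Pfkfb4, which make the activator of phosphofructokinase, gave -0.13 and 0.05, with 95% intervals of -0.32 to 0.07 and -0.12 to 0.22. Fbp1 encodes fructose-1,6-bisphosphatase, which runs the phosphofructokinase step backwards in gluconeogenesis. It measured 9.23, 9.36, 9.87 and 9.75 in tumors and 5.99, 5.88, 6.08 and 7.34 in wild-type thymus. Wild-type replicate 4 stood 1.26 above the next wild-type array, and every tumor array exceeded it by at least 1.89. The rise was 3.23 ± 0.31, or 9.37-fold (adjusted p = 1.03e-04), and 3.57 without wild-type replicate 4. With 50 added to each intensity before the log it was 2.5955, or 6.04-fold. Macrophage markers summed to 7514, 5199, 10249 and 10560 on tumor replicates 1 to 4, and to 4949 to 5688 in wild type. Of these markers 4 of 11 were called higher, against 16.2% of all clusters. Among these markers the largest rises were those of Cd5l (mean 9.26 in tumors and 6.04 in wild type), Arg1 (9.38 and 6.34) and Msr1 (8.62 and 6.86). The others differed less, from Cd68 (10.39 and 9.75) to Csf1r, which was lower in tumors (8.45 and 8.58). The median difference of the 11 was 0.37, and 0 were called lower. The part of these markers in the rises of Fbp1 and Slc16a3 was not tested.

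**Figure D2:**
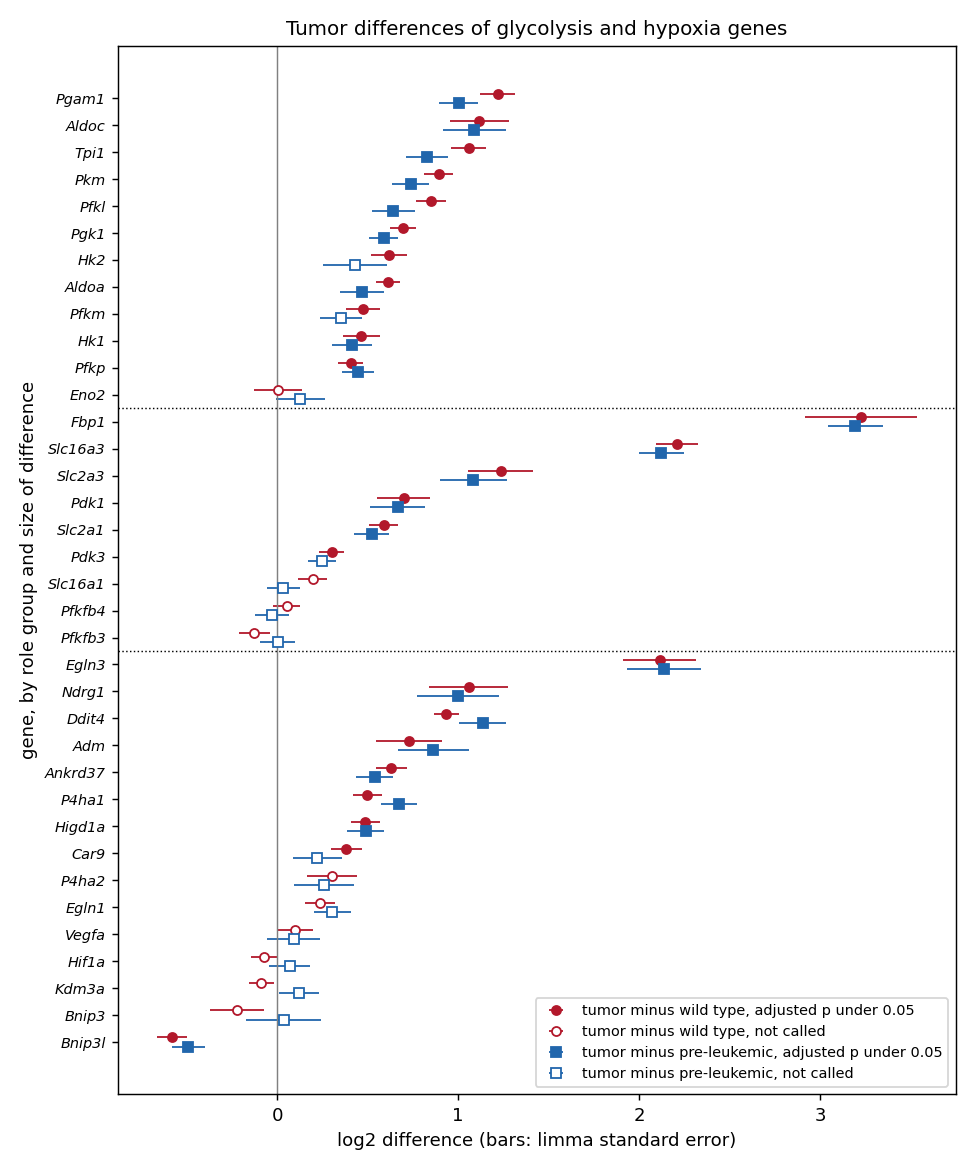
Points give the log2 difference of each gene, red circles for tumor minus wild type and blue squares for tumor minus pre-leukemic, with limma standard errors as bars. Filled symbols passed an adjusted p of 0.05 and open ones did not. Dotted lines part the enzymes (top), the transporters, regulators and Fbp1 (middle) and the hypoxia genes (bottom). The enzymes lie between 0.00 and 1.22, while the hypoxia genes reach from -0.58 to 2.14.

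The hydroxylase gene Egln3 measured 11.23, 10.46, 11.17 and 11.54 in tumors and 8.99, 9.17, 8.82 and 8.98 in wild-type thymus. Even tumor replicate 2, the lowest, was above every wild-type array by at least 1.29, and the rise was 2.11 ± 0.20, or 4.33-fold (adjusted p = 9.94e-05). Egln1, the main oxygen sensor, gave 0.24 with a 95% interval of 0.05 to 0.42 (adjusted p = 0.0547) and was called without tumor replicate 3 (0.30, adjusted p = 0.0154). Hif1a itself measured 11.38, 11.24, 11.35 and 11.51 in tumors and 11.45, 11.48, 11.41 and 11.44 in wild type. The groups overlapped, and the difference was -0.07 with a 95% interval of -0.24 to 0.09.

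Other hypoxia targets rose to different extents. Ndrg1, a stress-induced gene of differentiation, measured 9.83, 10.21, 10.49 and 11.06 in tumors, the widest spread of the set there (SD 0.52), and 9.36, 9.36, 9.29 and 9.35 in wild-type thymus. It rose by 1.06 ± 0.22 (adjusted p = 0.00596). Ddit4, also called Redd1, an inhibitor of mTORC1, was at 11.21, 11.13, 11.33 and 11.28 in tumors and 10.31, 10.32, 10.23 and 10.36 in wild type, and rose by 0.93 ± 0.07 (adjusted p = 3.09e-05). Adm, the vasodilator adrenomedullin, measured 7.90, 6.95, 7.70 and 7.63 in tumors and 6.88, 6.91, 6.80 and 6.68 in wild type. Tumor replicate 2 was the array that came near wild type, by 0.04, and the rise was 0.73 ± 0.18 (adjusted p = 0.0149).

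Smaller rises were those of Ankrd37, a hypoxia-induced ankyrin repeat gene (0.63 ± 0.08), P4ha1, a collagen prolyl hydroxylase subunit (0.50 ± 0.08), Higd1a, a mitochondrial protein (0.49 ± 0.08), and Car9, a carbonic anhydrase of the cell surface (0.38 ± 0.09). Car9 was weak, with tumor arrays at 6.48 to 6.75 and wild-type arrays at 6.10 to 6.35, and with 50 added to each intensity its rise was 0.24. The second Higd1a cluster rose by 0.33. Vegfa, the angiogenic factor that is a classic hypoxia target, gave 0.10 (95% interval -0.13 to 0.32), with tumor values of 8.93 to 9.36 and wild-type values of 8.89 to 9.09. P4ha2 gave 0.30 (-0.01 to 0.61), Kdm3a, a histone demethylase, -0.09 (-0.24 to 0.07), and Bnip3, a mitophagy receptor, -0.22 (-0.56 to 0.12).

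Bnip3l, also called Nix, a mitophagy receptor that red cells use to clear mitochondria, moved the other way. It measured 11.94, 11.87, 11.88 and 11.99 in tumors and 12.53, 12.63, 12.30 and 12.55 in wild-type thymus, so that the highest tumor array was 0.32 below the lowest wild-type array. It fell by 0.58 ± 0.08 on the log2 scale (adjusted p = 8.59e-04). The 4 measured erythroid markers summed to 418 to 523 on tumor arrays, 1768 to 5024 on pre-leukemic arrays and 1627 to 4951 on wild-type arrays. Of the 4, 2 were called lower in tumors than in wild type, against 14.5% of all clusters. The part of erythroid markers in the result was not tested.

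**Figure D3:**
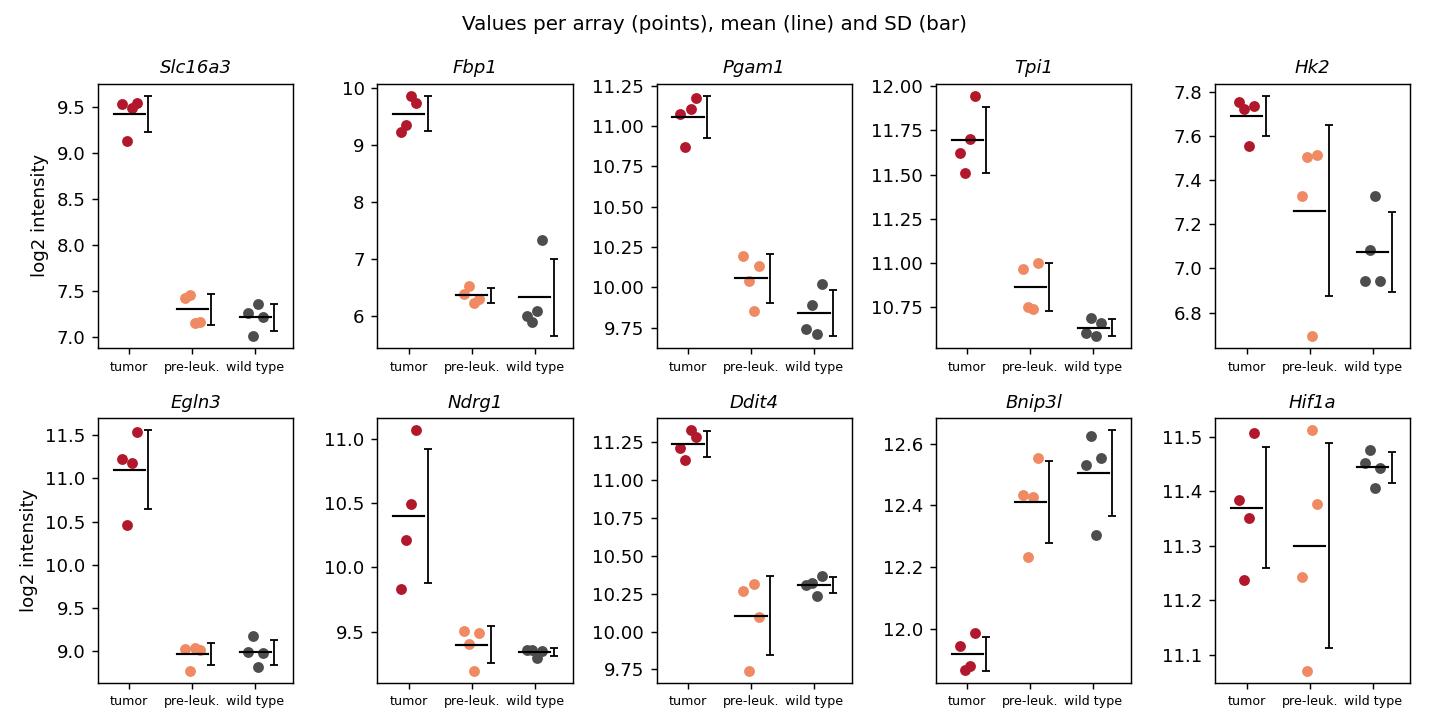
Points are log2 intensities of single arrays for 10 genes, with tumors left, pre-leukemic thymus in the middle and wild type right in each panel, a line at the mean and a bar for the SD (n = 4). Each panel has its own vertical scale. Tumor points do not overlap either other group for any gene shown but Hif1a, and lie below them for Bnip3l. For Hk2 the gap to pre-leukemic thymus is only 0.04, and that difference was not called.

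Paralogs of the same step were set against each other within each array, as the log2 difference of the pair, and compared between groups with an exact two-sided permutation test. There were 12 pairs, and with 4 arrays against 4 the smallest p that test can give is 0.0286. Between tumor and wild type, the difference Slc16a3 minus Slc16a1 changed by 2.01 ± 0.15 (SE), Egln3 minus Egln1 by 1.88 ± 0.25 and Pfkl minus Pfkp by 0.45 ± 0.11 (exact p = 0.0286 each, 0.114 adjusted over the 12 pairs). For the other 9 pairs the p was 0.0571 or more. Among these, Slc2a3 minus Slc2a1 gave 0.65 ± 0.22 (exact p = 0.114), Pdk1 minus Pdk3 0.40 ± 0.16 (exact p = 0.0571), and Hk2 minus Hk1 0.15 ± 0.14 (exact p = 0.257). None of the 12 passed 0.05 after adjustment. With p limited to 0.0286, a pair of any size of change could pass only if many of the 12 sat at that limit.

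A wider list of glucose metabolism genes outside the set held both rises and falls. Of 42 measured, 9 rose and 12 fell in tumors against wild type, with a median of -0.0033. Over all clusters, 16.2% were called higher and 14.5% lower. The largest rises were those of Tkt, transketolase of the pentose phosphate pathway (0.62 ± 0.08), G6pc3, a glucose-6-phosphatase (0.58), Minpp1 (0.54) and Gys1, glycogen synthase (0.45). The largest falls were those of Gpd1, glycerol-3-phosphate dehydrogenase (-3.45 ± 0.21), the pyruvate dehydrogenase kinases Pdk4 (-3.03 ± 0.33) and Pdk2 (-1.87 ± 0.22), and Pck1, an enzyme of gluconeogenesis (-2.16 ± 0.23). Gpd1, Pdk4 and Pck1 are known to be abundant in fat. All 9 measured fat markers were lower in tumors, and the part of fat in these falls was not tested. Of 36 other genes of the hypoxia response, 10 rose and 5 fell, against the same 16.2% and 14.5% of all clusters. Their median was -0.01. Hmox1, heme oxygenase, rose 5.66-fold, with tumor arrays at 9.99 to 10.53 and wild-type arrays at 7.72 to 7.84. Plod2, a lysyl hydroxylase of collagen, rose by 1.48 ± 0.09, Ak4, an adenylate kinase, by 1.47 ± 0.29, and Car12, a carbonic anhydrase, by 1.32 ± 0.08. Macrophages are known to make Hmox1, and the part of their markers, given above, in its rise was not tested. Ppp1r3c, a glycogen-targeting phosphatase subunit, fell by 0.92, Kdr, a receptor of Vegfa on endothelium, by 0.90, Zfp36l1, an RNA-binding protein, by 0.87, and Insig2, a regulator of sterol synthesis, by 0.43. Endothelial markers summed to 1845 to 2349 on tumor arrays, 1915 to 2516 on pre-leukemic arrays and 2221 to 2635 on wild-type arrays, and their part in the fall of Kdr was not tested.

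Tumor was next compared with pre-leukemic thymus, which has the same Mcm4 genotype. Of the 36 genes, 21 rose in tumors and 1 fell, against 7.74% of all clusters called higher and 8.27% called lower. The median was 0.48, against 0.02 over all clusters. This comparison shares its tumor arrays with the previous one, so the values stand side by side and are not independent. Of the enzymes, 9 of 12 rose and 0 fell, with a median of 0.53. Of the transporters, regulators and Fbp1, 5 of 9 rose, and of the hypoxia genes 7 of 15 rose and 1 fell.

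Fbp1 measured 6.37, 6.53, 6.23 and 6.30 on the pre-leukemic arrays, with none near the 7.34 of wild-type replicate 4, and rose in tumors by 3.19 ± 0.15 (adjusted p = 5.63e-06). Egln3 was at 9.03, 8.77, 9.04 and 9.02 in pre-leukemic thymus and rose in tumors by 2.14 ± 0.20 (adjusted p = 2.19e-04). Slc16a3 was at 7.42, 7.46, 7.15 and 7.16 in pre-leukemic thymus and rose by 2.12 ± 0.13 (adjusted p = 2.12e-05). Each of these 3 genes had every tumor array above every pre-leukemic array, by 2.70, 1.43 and 1.67. Ddit4, at 10.27, 9.74, 10.31 and 10.09 in pre-leukemic thymus, rose by 1.14 ± 0.13 (adjusted p = 6.88e-04). Bnip3l, at 12.43, 12.23, 12.43 and 12.55, fell by 0.49 ± 0.09 on the log2 scale (adjusted p = 0.00728).

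Among the enzymes, Aldoc (1.09), Pgam1 (1.00), Tpi1 (0.83) and Pkm (0.74) had the largest rises over pre-leukemic thymus. Hk2 was not called (0.43 ± 0.18, adjusted p = 0.139). Its pre-leukemic values were 7.33, 7.51, 6.69 and 7.52. Without pre-leukemic replicate 3 its difference was 0.24. Pfkm (0.35, adjusted p = 0.0712) and Pdk3 (0.25, adjusted p = 0.0597) also missed the threshold. All 4 tumor arrays of Hk2, Pfkm and Pdk3 lay above all 4 pre-leukemic arrays, a pattern not counted over all clusters in this comparison. The calls of Hk1 (0.41, adjusted p = 0.0335) and Aldoa (0.47, adjusted p = 0.0301) did not hold in 7 and 4 of 8 fits with an array removed, at differences of 0.32 to 0.43 and 0.44 to 0.47. That of Pdk1 (0.67) did not hold without pre-leukemic replicate 1 (0.65, adjusted p = 0.0554) and that of Adm (0.86) without tumor replicate 4 (0.83, adjusted p = 0.0507). Egln1 (0.30) was called without tumor replicate 3 (0.36, adjusted p = 0.0497).

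Of the 42 other genes of glucose metabolism, Minpp1 (0.59) rose over pre-leukemic thymus and 10 fell, led by Gpd1 (-3.42), Pdk4 (-2.34), Pck1 (-1.68) and Pdk2 (-1.66). Of the 36 other hypoxia genes 9 rose and 4 fell. Over all clusters, 7.74% were called higher and 8.27% lower in this comparison. Hmox1 (2.14 ± 0.16), Ak4 (1.53), Plod2 (1.34) and Stc2, a secreted stanniocalcin (1.14), led the rises, and Kdr (-0.84), Ppp1r3c (-0.83), Zfp36l1 (-0.81) and Mxi1, an antagonist of Myc (-0.33), were the falls. Fbp1 had a rise of 2.6008 over pre-leukemic thymus with 50 added to each intensity, and the second cluster of Higd1a a rise of 0.28, against 0.49 for the first. The groups overlapped for Pdk4, Pck1, Kdr and Ppp1r3c. In the 12 paralog pairs, Slc16a3 against Slc16a1 (2.09 ± 0.15), Egln3 against Egln1 (1.83 ± 0.25), Pdk1 against Pdk3 (0.42 ± 0.16) and Bnip3l against Bnip3 (-0.53 ± 0.22) reached the smallest exact p of 0.0286, or 0.0858 adjusted over the 12 pairs.

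Pre-leukemic and wild-type thymus differ in Mcm4 genotype at the same age. No gene of the set was called, as was none of the 17829 clusters (0%). The posterior criterion and the test against 1.5-fold can only remove calls, so they had none to change here. An unadjusted p under 0.05 was given to 3 of the 36 genes by limma, against 6.24% of all clusters. They were Tpi1 (0.23, 95% interval 0.05 to 0.41), Slc16a1 (0.16, 0.03 to 0.30) and P4ha1 (-0.17, -0.34 to -0.01), each at an adjusted p of 0.764. Tpi1, at 10.74 to 10.96 on replicates 1 to 3 and 11.0001 on replicate 4, and Slc16a1, at 11.25, 11.33, 11.22 and 11.27, had every pre-leukemic array above every wild-type array, a pattern shown by 3.65% of all clusters. No member was lower on all 4, against 0.78% of clusters.

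The differences of the 12 enzymes lay between -0.12 and 0.23 with a median of 0.13, those of the 15 hypoxia genes between -0.26 and 0.16 with a median of -0.07, and the median of all clusters was 0.04. For Slc16a3 and Egln3, with large rises in tumors, the pre-leukemic differences were 0.09 (-0.15 to 0.33) and -0.02 (-0.24 to 0.19). For Fbp1 it was 0.03 (-0.63 to 0.69), and 0.37 without wild-type replicate 4 (adjusted p = 0.837). In the wider lists 0 genes were called, and the smallest p were those of Tkt (0.27), Galm, an aldose epimerase (-0.18), Car12 (0.35) and Hmox1 (0.36), each at an adjusted p of 0.764. Pre-leukemic replicate 3 had the lowest value of its group for 8 of the 12 enzymes, among them Hk2 (6.69, with the others at 7.33 to 7.52), Pfkl (8.55, with the others at 8.92 to 9.07) and Aldoa (11.06, with the others at 11.42 to 11.56). Bnip3 was at 8.68 on it and at 9.14 to 9.71 on the others. This is the array whose fat, fibroblast, neutrophil, endothelial, erythroid and macrophage sums were the lowest of its group. Its double-positive thymocyte and medullary epithelial sums were the highest. The part of these cell types in the values was not tested.

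**Figure D4:**
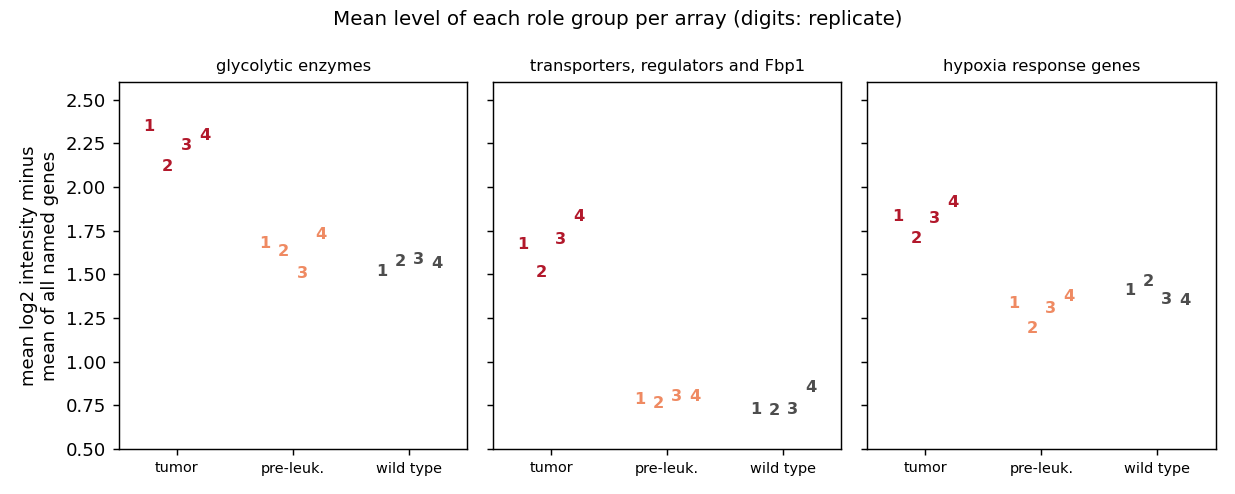
Digits mark replicate arrays at the mean log2 intensity of the genes in a role group minus the mean of all named genes, for tumors, pre-leukemic thymus and wild type from left to right. Enzyme levels were 2.12 to 2.35 on tumor arrays, 1.504 to 1.73 on pre-leukemic arrays and 1.51 to 1.59 on wild-type arrays. Tumor replicate 2 is the lowest tumor array in all 3 panels.

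Within the tumors, replicate 2 had the lowest value of its group for 21 of the 36 genes, including 8 of the 12 enzymes. Its mean level was 2.12 for the enzymes, against 2.24 to 2.35 on the other tumor arrays, and 1.70 for the hypoxia genes, against 1.82 to 1.91. All 3 role groups on this array were above every pre-leukemic and wild-type array. Its intensities spanned 6.50 log2 units between the 5th and 95th percentiles, the narrowest range of the tumor arrays, which otherwise spanned 6.59 to 6.91. The median SD of the 36 genes among tumors was 0.13, against 0.14 among pre-leukemic and 0.08 among wild-type arrays, and over all clusters it was 0.18, 0.17 and 0.09.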

How the data were processed

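RNA of 12 pools of 3 organs each was hybridised to 1 Affymetrix exon array per pool, biotin-labelled after amplification, per the labels' protocols. The deposited values are 1 linear intensity a transcript cluster (6.17 to 24310), whose software and normalization were not given in the sources read. Intensities were log2-transformed with no pseudocount. In the other matrices, 24 columns carry pool names found in no label, and none of them was used.

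Each comparison was fitted on its 8 arrays by lmFit and eBayes of limma 3.58.1 (R 4.3.3, two-sided) over all 17829 clusters with no filter. The threshold was 0.05 after Benjamini-Hochberg adjustment, and every adjusted p of a single gene is from this fit. Pools are labelled as biological replicates. An array has no read depth, and the number of arrays limits the precision. In the platform annotation 15618 clusters had a single symbol, 1370 had several and 841 had none. All 36 measured members are described, and of the wider pathway the 4 largest called rises and falls per list are named, or the 2 lowest p where no gene was called. Members, lists and tests were chosen with earlier results of these data known. The fit was also run on simulated data with far fewer changed clusters than were called in the tumor comparisons, and no result here rests on that run. Alternatives covered the call rule, normalization, log offset, a filter on dim clusters, a shared fit of 12 arrays, the replicate number as a block, the choice of cluster and leaving out each array.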

Additional observations from a re-analysis of the deposited data

Results flagged for a closer look

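In groups of 4 arrays, a value was taken as far from the rest where its gap to the nearest array, as a share of the group's range, exceeded Dixon's critical value, which chance gives for about 5% of groups. Of 108 groups, 8 had such an array. Fbp1 was at 7.34 on wild-type replicate 4, with the other wild-type arrays at 5.88 to 6.08. On tumor replicate 2, Slc16a3 was at 9.13 (others 9.49 to 9.54), Pdk3 at 9.45 (others 9.57 to 9.59) and Pfkfb4 at 6.83 (others 6.988 to 7.0032). Egln3 was at 8.77 on pre-leukemic replicate 2 (others 9.02 to 9.04), Eno2 at 6.71 on pre-leukemic replicate 4 (others 6.89 to 6.92), and Vegfa at 8.62 on pre-leukemic replicate 3 (others 9.10 to 9.19). Ndrg1 was at 9.29 on wild-type replicate 3, with the others between 9.35 and 9.36.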

How the results depend on the processing

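The stricter call rules changed the counts. When a call needed a posterior above 0.95 (limma's B, prior share 0.01), 10 of the 26 members called in tumors against wild type remained, with 6 enzymes and 2 hypoxia genes, and 5 of 22 against pre-leukemic thymus, with 1 enzyme and 2 hypoxia genes. With a test against 1.5-fold, 6 members remained against wild type (2 enzymes and 2 hypoxia genes) and 3 against pre-leukemic thymus (0 enzymes and 1 hypoxia gene). Over all 17829 clusters, calls against wild type went from 5474 to 886 with the posterior rule and to 617 at 1.5-fold. Against pre-leukemic thymus they went from 2855 to 364 and to 260. Counts over the other settings were between 25 and 28 against wild type and between 20 and 25 against pre-leukemic thymus. Leaving out 1 array gave 26 to 27 and 19 to 22. No called member changed direction under any of these settings. In pre-leukemic against wild-type thymus 0 members were called under all of them, where the stricter call rules could only remove calls. Same-numbered arrays did not deviate together (correlations of -0.55 to 0.42), so the numbers do not pair them. With the replicate block 25, 20 and 0 members were called in tumor against wild type, tumor against pre-leukemic and pre-leukemic against wild type, with Pdk3 lost in the first and Aldoa and Hk1 in the second. Quantile normalization moved the median of all clusters by at most 0.03.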
